A study of Mus musculus with 10 samples.

Results

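The genes described here encode the SR and hnRNP splicing factors, with a few partners: SR proteins (Srsf1 to Srsf7, Srsf9, Srsf10 and Srsf11), SR-like and SR-related proteins (Tra2a, Tra2b, Srrm1 and Srrm2), the hnRNP family with Ptbp1, the RNA helicases Ddx5 and Ddx17, and Taf15. The list named 33 genes. Of these, 31 were measured by at least 1 probe set annotated to that gene alone, and each gene was represented by its probe set with the highest mean over all arrays. All 31 passed the filter on low values (a highest group mean of at least 4 on the log2 scale), out of 10632 genes and 20681 probe sets that did. Srsf7 had no probe set in the annotation used here. The probe sets of Hnrnpa3 were each annotated to a further gene as well, so neither Srsf7 nor Hnrnpa3 is described.

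RNA came from fibroblasts derived from mouse embryos, cultured in DMEM with 10% fetal bovine serum and extracted with Trizol. In the conditional knockout line (CDKO) the targeted gene is Dicer, whose enzyme turns hairpin precursors into mature microRNAs. This line was untreated, given 1 µM, or given 5 µM of 4-hydroxytamoxifen for 4 days. Wild-type (WT) fibroblasts were given 5 µM for 4 days or left untreated. Each of these 5 groups had 2 Affymetrix arrays, 10 in all, and the labels do not say whether the pair came from separate cultures, so that p values may measure technical spread only. 4-hydroxytamoxifen binds the estrogen receptor, and recombinases joined to the ligand-binding domain of that receptor become active when it is given. The labels name no Cre transgene, promoter, floxed allele or strain, and the WT cells are not said to carry a Cre. The text describing the samples calls all 10 of them conditional knockout, while the titles name 4 as WT; the titles were followed.

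SR proteins hold an RNA recognition motif and a tail rich in arginine and serine, bind exonic enhancers and recruit the splicing machinery to nearby splice sites. The hnRNP proteins coat nascent transcripts, and many of them silence exons, so that the balance between both families helps to set which exons are kept. Several SR and hnRNP genes limit their own level through poison exons that send their transcripts to nonsense-mediated decay. Ddx5 and Ddx17 also belong to the Drosha complex, which cuts the hairpins on which Dicer then acts.

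Of the genes, 4 hold a microRNA hairpin within their bounds and on the same strand, by RefSeq coordinates (GRCm38.p6), and these are shown because Dicer acts on such hairpins. Hnrnpk holds Mir7-1, Srrm2 holds Mir5125, Ptbp1 holds Mir6910 and Ddx5 holds Mir3064. The arrays measured the transcripts of the hosts and not the mature microRNAs. Of their mature sequences 5 follow with the seed (bases 2 to 8) in capitals, and no seed is shared among them.
mmu-miR-7a-5p, in Hnrnpk (chr13:58392841-58392863, minus strand): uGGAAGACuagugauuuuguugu
mmu-miR-7a-1-3p, in Hnrnpk (chr13:58392800-58392821, minus strand): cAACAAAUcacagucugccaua
mmu-miR-5125, in Srrm2 (chr17:23823339-23823358, plus strand): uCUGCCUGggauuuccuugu
mmu-miR-6910-5p, in Ptbp1 (chr10:79862592-79862614, plus strand): uGGGGGUAgggcaccagugggca
mmu-miR-3064-5p, in Ddx5 (chr11:106782736-106782757, minus strand): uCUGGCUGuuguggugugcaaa

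Some arrays stood apart before any comparison was made. Dicer1, the targeted gene, was read by 2 probe sets whose place relative to the deleted part the labels do not state, so neither checks the deletion. The brighter one read 7.09 and 5.99 in untreated CDKO cells, 5.40 and 8.30 at 1 µM and 5.83 and 5.78 at 5 µM, and in WT cells 7.64 and 7.19 at 5 µM and 8.97 and 9.10 untreated. The 18S ribosomal RNA control was raised in CDKO 1 µM replicate 2 (10.16) and in both untreated WT arrays (11.64 and 11.21), against 5.21 to 8.44 elsewhere. In the same 3 arrays the 3′ probe set of Gapdh exceeded its 5′ probe set by 1.58, 0.89 and 0.67, against -0.31 to 0.07 in the other 7. The spike-in controls of hybridisation split the arrays into a higher and a lower class. Their mean was 10.97 to 11.72 on the WT arrays, CDKO untreated replicate 1 and CDKO 5 µM replicate 1. On the other CDKO arrays it was 9.65 to 10.18. Most treated CDKO arrays were thus in the lower class and most control arrays in the higher one. Fibroblast markers were high in every group, with Col1a1 between 13.45 and 15.33 and Vim between 15.33 and 15.53 as group means. Untreated WT arrays also carried some markers of other tissues. The median of the 3 epithelial genes that passed the filter was 8.59 and 9.04 there, against 3.11 to 3.24 elsewhere. That of the 6 such skeletal muscle genes was 7.04 and 7.03, against 3.22 to 3.65. Krt8, Cdh1, Actc1, Myl1, Myh3 and Tnni1 passed the filter through untreated WT cells alone, so these gaps are in part set by the filter. Krt18, Mylpf and Des passed through other groups as well. Their means were 9.52, 7.28 and 8.96 in untreated WT cells, against 7.17 to 8.59, 4.66 to 5.01 and 7.34 to 9.26 elsewhere. Epcam, Cldn4, Myog and Myod1 stayed below 4 in the mean of each group. The median of the 13 macrophage and leukocyte genes that passed the filter was 6.18 to 8.58 on CDKO arrays and 8.50 to 9.01 on WT arrays, with Itgam and Aif1 below 4 in each group mean. The median of 26 proliferation genes, centred per gene, was 1.37 and 1.34 in untreated WT, against 0.72 or lower in each other array.

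The design text of the series sets treated CDKO cells, at either dose, against the 3 control groups, and there 2 of the 31 genes passed the test, both lower. They were Taf15 and Hnrnpd. Tests were made with limma over all 20681 probe sets, and a gene was called where its Benjamini-Hochberg adjusted p was under 0.05. In that comparison 4.08% of all probe sets were called. The median change of the 31 genes was -0.14 on the log2 scale, where 1 unit is a factor of 2, against 0.0147 over all probe sets, and 26 of them had a negative sign.

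Taf15, an RNA-binding protein that also associates with the transcription factor TFIID, differed most. Its log2 values were 5.68 and 4.53 in untreated CDKO cells, 3.59 and 4.09 at 1 µM and 4.66 and 3.25 at 5 µM, and in WT cells 6.13 and 5.82 at 5 µM and 6.89 and 7.50 untreated. The WT arrays lay above all CDKO arrays, while among CDKO cells the 1 µM arrays lay below the untreated ones and the 5 µM arrays overlapped both. Taf15 was lower in treated CDKO cells by -2.20 ± 0.36 (log2, SE, limma adjusted p = 0.0221). Means of 3.84 at 1 µM and 3.96 at 5 µM are near the array background, so the difference is not a ratio of transcript amounts. Without the untreated WT arrays it was -1.64 and did not pass (adjusted p = 0.334), and with the line as a covariate it was -1.21 (adjusted p = 1). Its other probe set, 1453504_at, fell below the filter and read between 2.71 and 4.47. The mean of that probe set was highest in CDKO cells at 5 µM (3.95, from 4.47 and 3.43), against 2.72 to 3.11 in the other groups. At 5 µM it thus went the other way from the chosen one, at values near background. In a bulk sample, fewer cells of a type and less RNA per cell cannot be told apart.

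Hnrnpd, also known as AUF1, binds AU-rich elements of short-lived messenger RNAs. Its values were 11.03 and 10.98 in untreated CDKO cells, 10.72 and 11.24 at 1 µM and 10.43 and 10.47 at 5 µM, and in WT cells 11.35 and 11.22 at 5 µM and 12.04 and 12.07 untreated. Untreated WT cells stood highest and the 5 µM CDKO arrays lowest, with no overlap with the other groups at either end. Hnrnpd was lower in treated CDKO cells by -0.73 ± 0.14 (log2, SE, limma adjusted p = 0.0377). Without the untreated WT arrays the difference was -0.43 and did not pass (adjusted p = 0.58). With CDKO 1 µM replicate 2 left out as well it was -0.56 for Hnrnpd (adjusted p = 0.428) and -1.77 for Taf15 (adjusted p = 0.451). In the same comparison of treated CDKO with the control groups, 2 of 3 epithelial, 5 of 6 skeletal muscle and 2 of 13 macrophage markers that were tested passed as lower, and 25 of 26 proliferation genes had a negative sign with none past the test. Of these markers, Krt8, Cdh1, Actc1, Myl1, Myh3 and Tnni1 passed the filter through untreated WT cells alone. Their calls are no evidence of a difference. The part of other cell types in the lower Taf15 and Hnrnpd values was not tested. With the spike-in control class as a block, Taf15 stood at -1.45 (limma adjusted p = 0.0602) and Hnrnpd at -0.73 (limma adjusted p = 0.111). Neither passed in that fit.

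The promoters of Taf15 and Hnrnpd, the 2 genes called in that comparison, are shown so that both can be read side by side. RefSeq windows of 300 bases (GRCm38.p6) were searched on both strands for 5 motifs. The E-box was searched as CACGTG and the GC box as GGGCGG. The CCAAT box was searched by the letters of its name. The cyclic AMP response element was searched as TGACGTCA and the core of sites for ETS factors as CCGGAAG. The windows reach into the genes, by 85 bases in Taf15 and 242 in Hnrnpd when measured from the outermost annotated start, and the 215 and 58 bases before that start are printed 5′ to 3′ on the strand of the gene, with motif matches in capitals.
Taf15 (chr11:83472858-83473072, plus strand): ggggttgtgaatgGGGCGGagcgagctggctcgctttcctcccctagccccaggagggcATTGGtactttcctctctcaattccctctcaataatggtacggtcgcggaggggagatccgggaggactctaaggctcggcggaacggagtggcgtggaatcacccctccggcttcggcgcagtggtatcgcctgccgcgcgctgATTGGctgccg
Hnrnpd (chr5:99979131-99979188, minus strand): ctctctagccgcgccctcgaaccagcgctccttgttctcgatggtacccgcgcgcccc
The whole Taf15 window holds 2 CCAAT boxes and 2 GC boxes, of which the printed bases hold all but 1 GC box. The whole Hnrnpd window holds 3 GC boxes, 1 E-box and 1 ETS core, none of them in the printed bases. No motifs overlap in either window, and of the 5 only the GC box is in both windows. Over all 33 listed genes, 27 had a GC box in a promoter window (81.8%, against 38.2% of 27025 genes with a window), 21 a CCAAT box (63.6% against 41.1%), 8 an ETS core (24.2% against 9.9%), 7 an E-box (21.2% against 8.1%) and 1, Tra2a, the cyclic AMP response element (3.0% against 2.0%). A match is a run of letters and was not tested as a binding site.

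**Figure D1:**
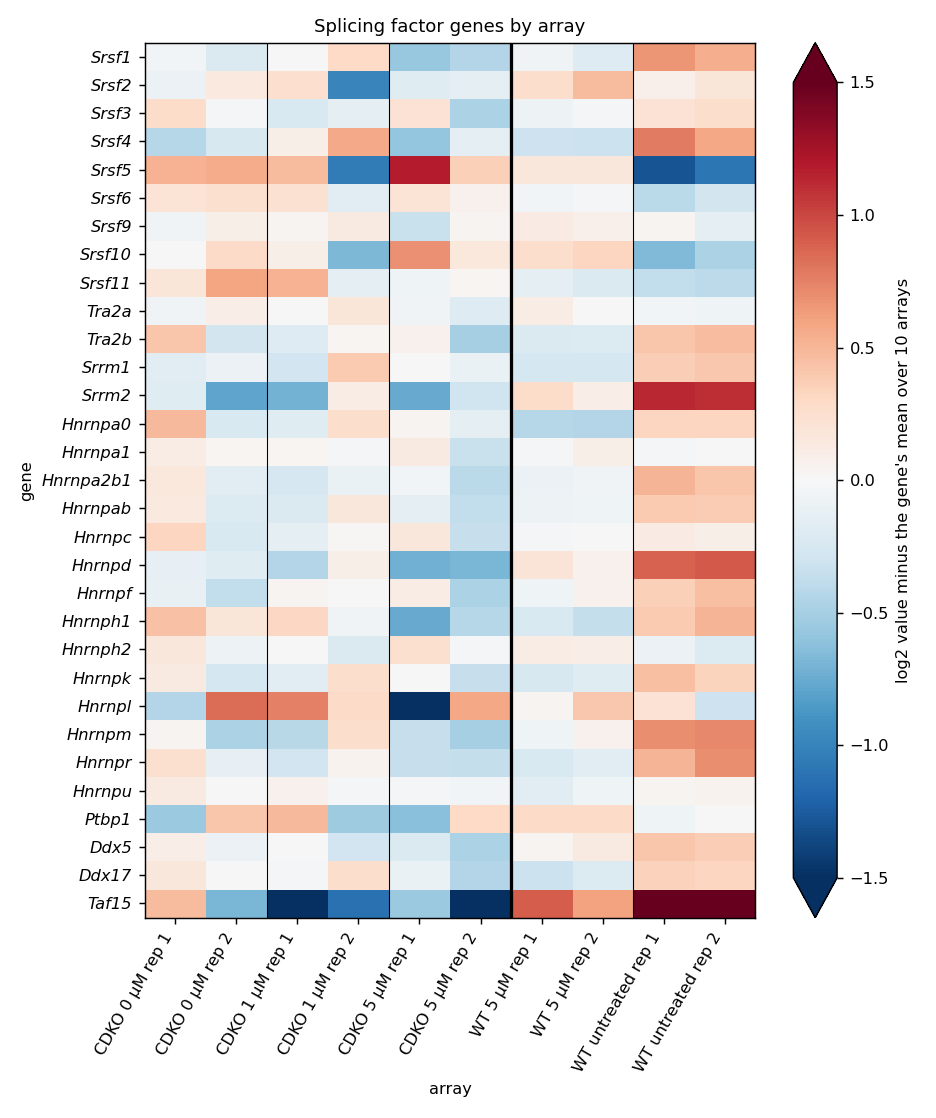
Splicing factor genes (rows) on the 10 arrays (columns), coloured by the log2 value minus the mean of that gene over the 10 arrays, on a scale limited to 1.5 either way. The untreated WT arrays stand apart from the treated WT arrays in most rows, and Srsf5 and Taf15 show opposite ends of the scale there.

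In CDKO cells none of the 31 genes passed at 5 µM against untreated, where 0.145% of all probe sets did. An unadjusted p under 0.05 in limma was found for 2 genes (Hnrnph1 and Hnrnpd), against 1839 of 20681 probe sets. The median change of the 31 genes was -0.18, against -0.0009 over all probe sets, and 26 had a negative sign. Of the marker lists, 23 of 26 proliferation genes (median -0.75) and 10 of 11 fibroblast markers (median -0.78) also had a negative sign, none of them past the test, and their part in the shift was not tested. In 9 genes both 5 µM arrays lay below both untreated arrays, namely Ddx17, Ddx5, Hnrnpd, Hnrnph1, Hnrnpr, Hnrnpu, Srsf1, Srsf11 and Srsf2, against 14.9% of all probe sets. In none did both lie above, against 15.7% of all probe sets.

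Hnrnph1, which binds runs of guanines, had the smallest p in that comparison. It read 12.37 and 12.11 in untreated CDKO cells, 12.23 and 11.87 at 1 µM and 11.17 and 11.50 at 5 µM, and in WT cells 11.69 and 11.56 at 5 µM and 12.31 and 12.43 untreated. In both lines the 5 µM arrays were the lowest, without overlap with the untreated arrays of the line. The change was -0.91 ± 0.23 in CDKO cells (SE, limma adjusted p = 0.239). Among WT cells it was -0.74 ± 0.23 (adjusted p = 0.0796). Its difference between the lines was -0.17 ± 0.32 (adjusted p = 0.864). Hnrnpd differed by -0.55 ± 0.22 (adjusted p = 0.515) and Taf15 by -1.15 ± 0.55 (adjusted p = 0.636) with the values given above, and neither passed.

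At 1 µM against untreated CDKO cells none of the 31 genes and 0% of all probe sets were called, with 1 gene and 710 of 20681 probe sets at an unadjusted p under 0.05 in limma. That gene was Srsf4, an SR protein with a long tail of arginine and serine, at 0.67 ± 0.25 (SE, adjusted p = 0.887). It was followed by Taf15 (-1.27 ± 0.55) and Srsf5 (-0.82 ± 0.48), both with the same adjusted p. Without CDKO 1 µM replicate 2, the array with a raised 18S control, Srsf4 stood at 0.42, Taf15 at -1.52 and Srsf5 at -0.06, and again none passed. Between the doses, 5 µM against 1 µM, none of the 31 passed while 0.169% of all probe sets did. There 4 genes had an unadjusted p under 0.05 in limma, against 2677 of 20681 probe sets. The smallest p values belonged to Srsf1 (-0.66 ± 0.20, adjusted p = 0.272), Hnrnph1 (-0.72 ± 0.23, adjusted p = 0.286) and Srsf4 (-0.69 ± 0.25, adjusted p = 0.327). Without CDKO 1 µM replicate 2 these were -0.51, -0.90 and -0.45.

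In WT cells the replicates lay closer together. None of the 31 passed at 5 µM against untreated WT cells in the fit of all 5 groups, where 9.23% of all probe sets did. An unadjusted p under 0.05 in limma was reached by 14 of the 31 and by 6334 of 20681 probe sets. The median change was -0.41, against -0.06 over all probe sets. The fit of all 5 groups shares 1 spread between the lines, and the replicates of the lines differed in spread. The median SD of the 31 genes between replicates was 0.185 in untreated CDKO cells, 0.276 at 1 µM and 0.239 at 5 µM, against 0.051 in treated and 0.045 in untreated WT cells. Fitted on the 4 WT arrays alone, 22 of the 31 passed (71.0%, against 54.7% of all probe sets), of which 18 were lower with drug (58.1%, against 30.4% of all probe sets) and 4 higher (12.9%, against 24.3%). With array weights over all 10 arrays 22 passed as well, with Hnrnph2 in place of Ptbp1, where 60.2% of all probe sets did. Both treated WT arrays lay below both untreated ones in 20 genes and above them in 9, against 43.9% and 39.1% of all probe sets.

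This comparison coincides with the raised 18S control, the Gapdh difference and the markers of other tissues in both untreated WT arrays, so that drug and array quality cannot be told apart in it. In the fit of all 5 groups, 2 of 3 epithelial, 5 of 6 skeletal muscle and 13 of 26 proliferation markers passed as lower with drug. Of these, Krt8, Cdh1, Actc1, Myl1, Myh3 and Tnni1 passed the filter through untreated WT cells alone, and their calls are no evidence of a difference. With the Gapdh 3′ to 5′ difference as a covariate, chosen after the data were seen, none of the 31 genes passed. That fit used all 10 arrays, and none passed in it without the covariate either. Its count therefore does not bear on the calls from the 4 WT arrays. Within groups the Gapdh difference moved most between the 1 µM CDKO arrays (-0.1 and 1.58), so the adjustment rests mainly on that pair. Of the 22 genes called on the WT arrays alone, 21 kept their sign with that covariate, Ptbp1 did not (-0.19 ± 0.51), and the median change of the 18 lower genes was -0.46 against -0.68 without it.

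**Figure D2:**
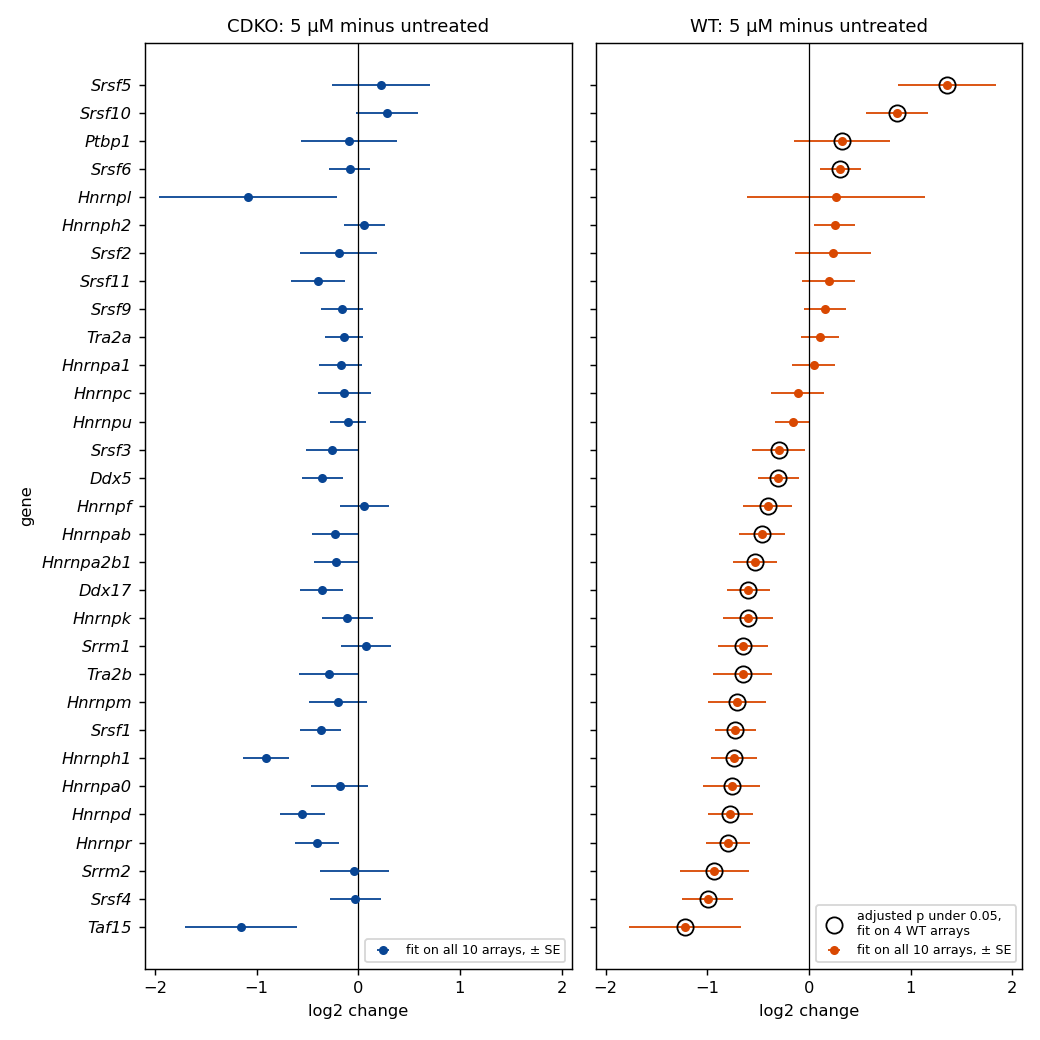
Log2 change of each gene at 5 µM against untreated in CDKO cells (left) and in WT cells (right), from the fit of all 10 arrays, with bars of 1 SE; open circles mark the 22 genes whose adjusted p was under 0.05 when the 4 WT arrays were fitted alone. In WT cells 18 circled genes lie left of 0 and 4 right of it, whereas no gene passed the test in CDKO cells.

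Among the SR and SR-related genes, 6 of 13 were lower and 3 higher with drug on the WT arrays alone, where 30.4% and 24.3% of all probe sets were. Srsf4 led the lower ones, at 8.65 and 8.64 in treated against 9.75 and 9.54 in untreated WT cells, with 8.53 and 8.72 in untreated CDKO cells, 9.05 and 9.53 at 1 µM and 8.38 and 8.81 at 5 µM. Its change in WT cells was -0.995 ± 0.25 in the fit of all groups (SE, limma adjusted p = 0.0506) and passed on the WT arrays alone (adjusted p = 0.0046). Srsf1, the prototype SR protein and an oncogene when in excess, read 12.83 and 12.70 in treated against 13.55 and 13.42 in untreated WT cells. In CDKO cells it read 12.84 and 12.66 untreated, 12.89 and 13.18 at 1 µM and 12.31 and 12.45 at 5 µM, so that the untreated WT arrays were the highest and the 5 µM CDKO arrays the lowest. The WT change of Srsf1 was -0.72 ± 0.20 (adjusted p = 0.0631, and 0.00798 on the WT arrays alone). Srsf3, the smallest SR protein, which also takes part in export of messenger RNA, read 12.42 and 12.46 in treated against 12.72 and 12.76 in untreated WT cells, within the CDKO range of 12.02 to 12.78.

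Srsf5 went the other way. It read 11.48 and 11.50 in untreated CDKO cells, 11.43 and 9.90 at 1 µM and 12.13 and 11.30 at 5 µM, and in WT cells 11.12 and 11.12 at 5 µM and 9.66 and 9.87 untreated. The 3 low arrays were those with the raised 18S control. The WT change was 1.36 ± 0.48 in the fit of all groups (adjusted p = 0.111), 1.36 ± 0.10 on the WT arrays alone (adjusted p = 0.00266) and 0.52 ± 0.29 with the Gapdh covariate (adjusted p = 0.383). Srsf10, which turns into a general splicing repressor when dephosphorylated, was lowest in the same 3 arrays. Its lowest values, 9.01, 9.01 and 9.20, came from CDKO 1 µM replicate 2 and the untreated WT arrays, against 9.68 to 10.36 elsewhere. Srsf6 was also higher on the WT arrays alone, at 11.21 and 11.23 in treated against 10.85 and 10.98 in untreated cells, and lay between 11.09 and 11.49 in CDKO cells.

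The chosen probe sets of Srsf2, Srsf9 and Srsf11 passed neither in the fit of all groups nor on the WT arrays alone. Srsf2 was lowest in CDKO 1 µM replicate 2 (10.49) and lay between 11.30 and 11.95 in the other 9 arrays. Srsf9 kept within 11.44 to 11.91 over all arrays. Srsf11 read 11.30 and 11.70 in untreated CDKO cells, 11.64 and 10.98 at 1 µM and 11.05 and 11.14 at 5 µM, above the 10.96 and 10.89 of treated and the 10.74 and 10.72 of untreated WT cells in each case.

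Tra2a and Tra2b, vertebrate relatives of the fly sex determination factor Transformer-2, bind purine-rich exonic enhancers. The main probe set of Tra2a lay between 11.30 and 11.68 on all arrays. Tra2b read 11.75 and 11.77 in treated against 12.39 and 12.44 in untreated WT cells and passed as lower on the WT arrays alone (-0.65 ± 0.07, adjusted p = 0.00525), while the CDKO arrays scattered from 11.47 to 12.38. Its only other tested probe set, 1419543_a_at, had the opposite sign on the WT arrays alone and did not pass (0.29 ± 0.08, limma adjusted p = 0.0522). Srrm1, a splicing coactivator, read 10.62 in both treated and 11.26 and 11.29 in untreated WT cells, and 10.60 to 11.28 in CDKO cells, with the highest of these in 1 µM replicate 2.

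Srrm2, a large scaffold protein of nuclear speckles, differed between the lines without drug. Its values were 11.21 and 10.60 in untreated CDKO cells, 10.69 and 11.52 at 1 µM and 10.65 and 11.10 at 5 µM, and in WT cells 11.68 and 11.50 at 5 µM and 12.54 and 12.51 untreated. Untreated WT cells stood above every other array. Untreated CDKO cells were lower than untreated WT cells by -1.61 ± 0.34 (SE, limma adjusted p = 0.0367). The other gene called in that comparison was Hnrnpd, at -1.05 ± 0.22 (adjusted p = 0.0363), so that 2 of the 31 were called where 6.58% of all probe sets were. With the Gapdh covariate neither passed, Srrm2 at -1.18 (adjusted p = 0.0811) and Hnrnpd at -0.81 (adjusted p = 0.0755). Both untreated CDKO arrays lay below both untreated WT arrays in 15 genes and above them in 6, against 30.4% and 30.9% of all probe sets. Among the markers in the same comparison, 2 of 3 epithelial, 5 of 6 skeletal muscle and 3 of 26 proliferation genes passed as lower, and their part in the 2 calls was not tested. The called epithelial markers and, apart from Mylpf, the called muscle markers passed the filter through untreated WT cells alone. Those marker calls are no evidence of a difference. The comparison shares the untreated arrays of both lines with that of treated CDKO cells against the control groups, so that the calls of Hnrnpd are not independent.

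**Figure D3:**
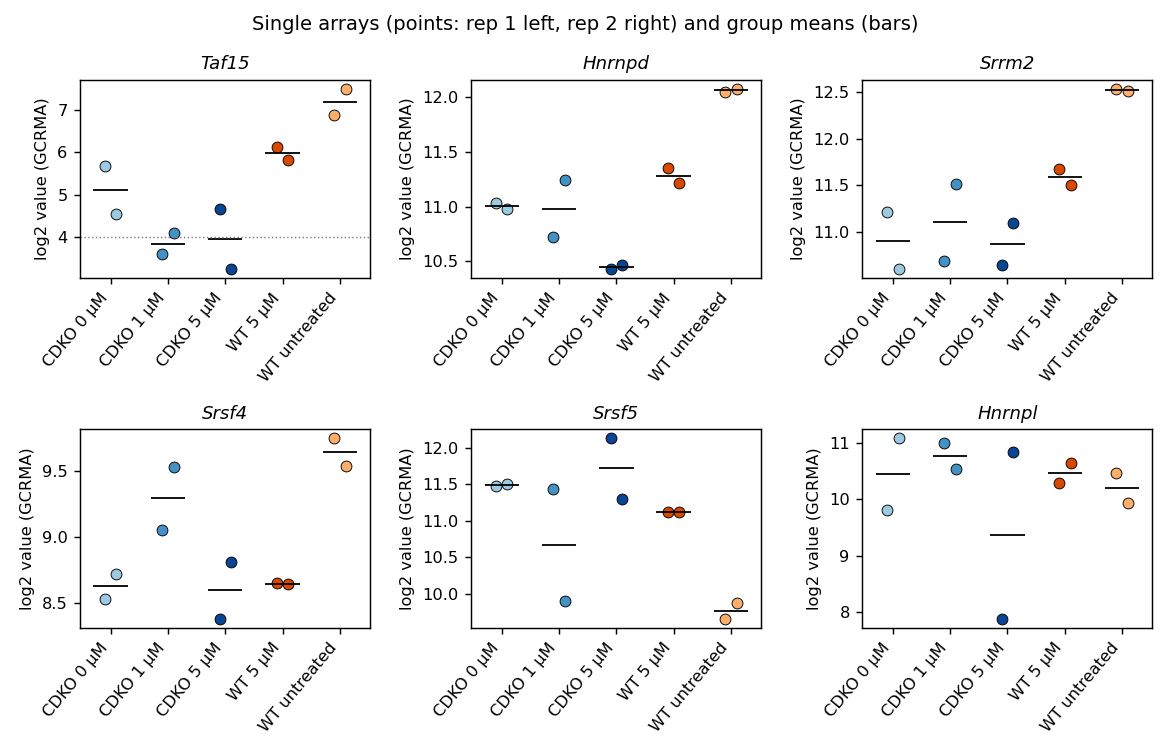
Log2 values of 6 genes on single arrays (points, replicate 1 left and replicate 2 right) with group means (bars), each panel on its own axis; the dotted line in the Taf15 panel marks the filter at 4. Hnrnpd, Srrm2 and Srsf4 are highest in untreated WT cells, Srsf5 is lowest there and in 1 array at 1 µM, and Hnrnpl has 1 low array at 5 µM.

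None of the 31 genes passed in treated CDKO against treated WT cells, where 1.8% of all probe sets did. There 2 genes had an unadjusted p under 0.05 in limma, against 3224 of 20681 probe sets. Hnrnpd stood at -0.83 ± 0.22 (SE, limma adjusted p = 0.126), Taf15 at -2.02 ± 0.55 (adjusted p = 0.132) and Ddx5 at -0.44 ± 0.20 (adjusted p = 0.36). In 12 genes both treated CDKO arrays lay below both treated WT arrays and in 6 above them, against 26.2% and 30.6% of all probe sets. The test of the difference between the lines in their response to 5 µM, CDKO minus WT, called none of the 31 and 0.348% of all probe sets. An unadjusted p under 0.05 in limma was found for 1 gene, against 2586 of 20681 probe sets. Srsf4 came first with 0.97 ± 0.35 (adjusted p = 0.337), then Srrm1 with 0.72 ± 0.35 (adjusted p = 0.447) and Srrm2 with 0.90 ± 0.48 (adjusted p = 0.493). The response of WT cells therefore was not shown to differ from that of CDKO cells in any of the 31 genes.

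Of 15 hnRNP genes, counted with Ptbp1, 9 were lower and 1 higher with drug on the WT arrays alone, against the same 30.4% and 24.3% of all probe sets. Hnrnpr, a relative of Syncrip, read 10.60 and 10.68 in treated against 11.35 and 11.54 in untreated WT cells, and 10.49 to 11.08 in CDKO cells. Its change in WT cells was -0.80 ± 0.22 in the fit of all groups (adjusted p = 0.0625) and it passed on the WT arrays alone (adjusted p = 0.00711). There 1437526_x_at of Hnrnpr was also called lower (-1.07), while 1452030_a_at had the opposite sign and did not pass (0.52 ± 0.19, limma adjusted p = 0.0894). Hnrnpm, which binds GU-rich RNA, read 10.35 and 10.48 in treated against 11.11 and 11.14 in untreated WT cells, and 9.92 to 10.68 in CDKO cells. Hnrnpa0 read 10.92 and 10.90 in treated against 11.68 and 11.68 in untreated WT cells, but its CDKO arrays spanned 11.12 to 11.83 and reached the untreated WT level. Hnrnpa2b1, an exon-silencing relative of Hnrnpa1, read 12.50 and 12.53 against 13.10 and 13.00 in the same WT groups and 12.19 to 12.74 in CDKO cells.

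Hnrnpk, a poly(C)-binding protein and the host of the miR-7a hairpin shown above, read 14.00 and 13.59 in untreated CDKO cells, 13.69 and 14.12 at 1 µM and 13.85 and 13.52 at 5 µM. In WT cells it read 13.62 and 13.67 at 5 µM and 14.30 and 14.19 untreated, lower with drug by -0.60 ± 0.08 on the WT arrays alone (adjusted p = 0.00842). That rests on 1 of 4 probe sets, since the other 3 differed by -0.22 to 0.06 and were not called. Its change in CDKO cells at 5 µM did not pass and both groups overlapped. Hnrnpab read 13.69 and 13.70 in treated against 14.16 and 14.14 in untreated WT cells, and Hnrnpf, like Hnrnph1 a binder of guanine runs, 12.83 and 12.97 against 13.26 and 13.35. In CDKO cells Hnrnpab lay between 13.39 and 13.94 and Hnrnpf between 12.42 and 13.01.

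By their chosen probe sets, another 5 hnRNP genes passed neither in the fit of all groups nor on the WT arrays alone, although Hnrnph2 passed with drug in WT cells under array weights. Hnrnpa1, the best known antagonist of SR proteins at exons, lay between 9.71 and 10.19 on all arrays. Hnrnpc, which binds uridine tracts, lay between 12.68 and 13.36, Hnrnpu, which also ties chromatin to the nuclear scaffold, between 12.57 and 12.87, and Hnrnph2 between 10.77 and 11.23. Hnrnpl, a binder of CA repeats, had the widest spread between replicates of all 31 genes at 5 µM (SD 2.08 in CDKO cells). It read 9.81 and 11.08 in untreated CDKO cells, 11.00 and 10.53 at 1 µM and 7.88 and 10.83 at 5 µM, against 10.28 and 10.64 in treated and 10.46 and 9.93 in untreated WT cells. A single array, CDKO 5 µM replicate 1, carries the low value, and the change at 5 µM of -1.08 ± 0.88 did not pass (adjusted p = 0.86).

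Ptbp1, the polypyrimidine tract-binding repressor of neuronal exons and the host of Mir6910, split the CDKO arrays irrespective of dose. It read 11.73 and 12.70 in untreated cells, 12.78 and 11.75 at 1 µM and 11.66 and 12.59 at 5 µM. In each CDKO group the replicates thus lay about 1 log2 unit apart, while WT cells read 12.58 and 12.57 treated and 12.22 and 12.28 untreated. On the WT arrays alone it was higher with drug by 0.32 ± 0.07 (adjusted p = 0.0289). In the fit of all groups the same change had an SE of 0.47 (adjusted p = 0.69).

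Ddx5 and Ddx17 were both lower with drug on the WT arrays alone. Ddx5 read 13.24 and 13.06 in untreated CDKO cells, 13.14 and 12.86 at 1 µM and 12.92 and 12.67 at 5 µM, and in WT cells 13.19 and 13.28 at 5 µM and 13.56 and 13.52 untreated. Ddx17 read 12.62 and 12.44, 12.41 and 12.70, and 12.34 and 12.00 in the same CDKO groups, and 12.12 and 12.24 in treated against 12.79 and 12.77 in untreated WT cells. In both lines the 5 µM arrays of each helicase lay below the untreated arrays. At 5 µM in CDKO cells the changes were -0.35 ± 0.20 for Ddx5 (adjusted p = 0.738) and -0.36 ± 0.21 for Ddx17 (adjusted p = 0.749).

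Different probe sets of 1 gene often disagreed. Of the 31 genes, 23 had several tested probe sets, and between 11 and 21 of these 23 had probe sets of opposite sign, depending on the comparison. On the WT arrays alone, 15 of all 94 tested probe sets of these genes were called higher and 40 lower, where 24.3% and 30.4% of all probe sets were, and 7 genes had probe sets called in both directions: Ddx5, Hnrnpab, Hnrnpf, Srsf1, Srsf10, Srsf3 and Srsf6. Their direction in WT cells therefore rests on the probe set chosen. Some genes without a call by their chosen probe set had other probe sets called on the WT arrays alone. For Hnrnpu, 3 of the other 4 were lower (1423050_s_at at -0.64, 1434391_at at -0.61 and 1434390_at at -0.51). For Hnrnpa1, 1436549_a_at was lower (-0.95 ± 0.18, limma adjusted p = 0.0172). Tra2a had 1455933_at lower (-1.12), a probe set that passed the filter through untreated WT cells alone. Other such calls were higher. They were 1452439_s_at (1.19 ± 0.10, adjusted p = 0.00287) and 1415807_s_at (1.58 ± 0.18, adjusted p = 0.00545) of Srsf2, and 1418693_at of Hnrnpc (0.82, adjusted p = 0.00451).

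Srsf1 shows this most. Its probe set 1452430_s_at read 10.46 and 11.22 in untreated CDKO cells, 11.22 and 6.93 at 1 µM and 11.32 and 10.98 at 5 µM, and in WT cells 11.00 and 11.11 at 5 µM and 7.60 and 8.07 untreated. Those 3 low arrays are the ones with the raised 18S control and Gapdh difference, and in the same arrays the chosen probe set was among the highest, at 13.18, 13.55 and 13.42. With drug in WT cells 1452430_s_at differed by 3.22 ± 0.19 and the chosen one by -0.72 ± 0.10 on the WT arrays alone (SE, adjusted p = 0.00187 and 0.00798). A further one, 1428100_at, was called lower in the fit of all groups as well (-1.27 ± 0.27, adjusted p = 0.0331). For Hnrnpf, 1423382_a_at read 10.89 in CDKO 1 µM replicate 2 and 11.08 and 11.24 in untreated WT cells, against 11.63 to 12.34 elsewhere. For Srsf2, 1415807_s_at read 7.68, 7.73 and 8.18 in those 3 arrays, against 8.99 to 9.84 elsewhere. These 3 probe sets were picked for display after their values were seen. Their positions along the transcripts were not used here, and the part of RNA quality in them was not tested.

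**Figure D4:**
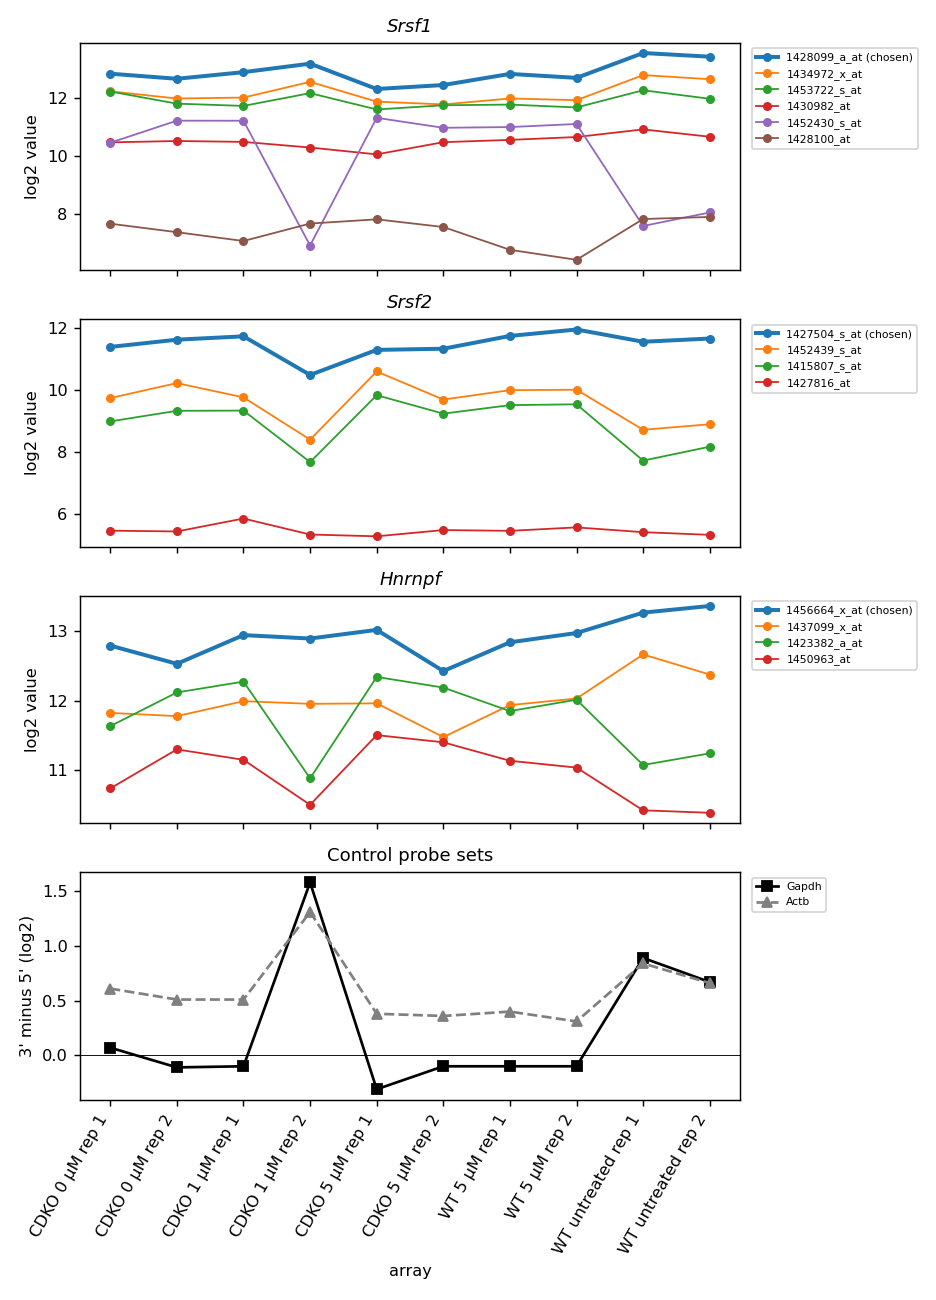
Log2 values of all tested probe sets of Srsf1, Srsf2 and Hnrnpf on the 10 arrays (the chosen one in bold), and in the lowest panel the difference between the 3′ and 5′ control probe sets of Gapdh and Actb. Some probe sets of each gene dip in CDKO 1 µM replicate 2 and in the untreated WT arrays, where the Gapdh difference is 1.58, 0.89 and 0.67.

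By the rule that compares calls in the fit of all groups, further genes had a probe set that disagreed with the chosen one. In treated CDKO cells against the control groups, 1430077_at of Srsf11 (-1.22 ± 0.25) and 1437638_at of Srrm2 (-2.04 ± 0.40) were called lower where the chosen ones were not, while 1427902_at of Srrm2 had the opposite sign. With drug in WT cells, 1418693_at of Hnrnpc (0.82 ± 0.20) was called higher. Probe sets 1455933_at of Tra2a and 1457568_at of Hnrnpd passed the filter through untreated WT cells alone (means 4.69 and 4.33, against 3.51 to 3.59 and 2.91 to 3.22 in the other groups), so that their calls as lower with drug are no evidence of a difference. In untreated CDKO against untreated WT cells, 1449121_at of Srsf10 (1.22 ± 0.28) and 1434390_at of Hnrnpu (1.70 ± 0.29) were called higher. In that comparison 1427902_at of Srrm2 was again of opposite sign to the called probe set (0.59 ± 0.42). Probe set 1439037_at of Ddx17 passed the filter through the 5 µM CDKO cells alone, so its values are a description only. It read 3.34 and 4.20 in untreated CDKO cells, 3.38 and 3.21 at 1 µM and 5.78 and 4.99 at 5 µM, against 3.25 and 3.25 in treated and 3.17 and 2.76 in untreated WT cells. The 5 µM CDKO arrays alone stood above 4.20 there, while the chosen Ddx17 probe set differed by -0.01 ± 0.21 between treated CDKO and treated WT cells.

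Other genes of splicing were read as lists. With 5 µM in CDKO cells, where 0.145% of all probe sets were called, none was called among 32 core spliceosome genes, 19 kinases and partners of SR proteins, 25 other splicing regulators and 9 genes of the exon junction complex and nonsense-mediated decay. Their median changes were -0.02, -0.25, -0.21 and -0.24. In WT cells the medians were -0.28, -0.57, -0.60 and -0.38. There 9.23% of all probe sets passed in the fit of all groups, and 3 genes of these lists did, each lower. They were Ptbp3, a paralog of Ptbp1 (9.30 in treated against 11.05 in untreated WT cells, -1.74 ± 0.23, adjusted p = 0.0094), Ewsr1, a relative of Taf15 (-1.14 ± 0.24, adjusted p = 0.0342), and Smg1, the kinase that starts nonsense-mediated decay (-1.30 ± 0.28, adjusted p = 0.0331). In treated CDKO cells against the control groups, where 4.08% of all probe sets passed, only Rbfox2, which binds GCAUG, passed among these lists. Its means were 9.54 at 1 µM and 10.09 at 5 µM against 9.86 in untreated CDKO, 11.50 in treated WT and 11.51 in untreated WT cells (-1.14 ± 0.23, adjusted p = 0.0403). The mean of untreated CDKO cells lay between those of both doses, and they were lower than untreated WT cells by -1.64 ± 0.35 (adjusted p = 0.0382). Rbm25, Mbnl2 and Ptbp3 also passed as lower in untreated CDKO against untreated WT cells, by -1.31, -0.99 and -1.43, where 6.58% of all probe sets passed.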

How the data were processed

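The authors deposited log2 values for each probe set. Per the submitters' processing notes, GCRMA was the tool, with no version; GCRMA in general corrects background by probe sequence, which can shift dim probe sets. Of 45101 probe sets, 20681 were tested: those that were not among the 64 controls and reached a mean of 4 in at least 1 group. Probe sets were named from the platform annotation, updated to RefSeq symbols; 34945 had 1 gene, 932 several and 9160 none.

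Group means of all 10 arrays were compared in R 4.3.3 with limma 3.58.1 (lmFit, eBayes, 5 residual degrees of freedom), and p values were adjusted by Benjamini-Hochberg over all tested probe sets. SE is that of the model. The fit was tested on simulated data in which each probe set had the same spread on all arrays. The planted changes were larger than those of most genes here. That simulation therefore does not cover the unequal spread of the lines or changes of the size seen here. The number of arrays limits the precision.

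The genes and lists were chosen with earlier results of these data known. In each comparison the genes named are up to 6 called in each direction, or the 3 with the smallest p, and those whose probe sets disagree; of the other splicing lists, up to 4 called genes a list. Replicate numbers were not used to pair the arrays in the main fit. The differences between replicates correlated at 0.43 between 5 µM and untreated CDKO cells and at -0.45 between 1 µM and untreated. Between the doses the value was 0.03. The sign thus did not follow the replicate number, but some CDKO groups shared replicate differences that the main fit did not model. The Gapdh covariate and the fit without both untreated WT and CDKO 1 µM replicate 2 were added after seeing the data.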

Additional observations from a re-analysis of the deposited data

Results flagged for a closer look

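The responses of Srsf2 and Srsf11 to 5 µM separated in opposite directions in the lines by their chosen probe sets: both treated CDKO arrays lay below both untreated ones, and both treated WT arrays above both untreated ones. Over all probe sets, 83% separated between these WT groups and 30.6% between these CDKO groups. The share that did so in opposite directions was not counted. For Srsf2 the values were 11.30 and 11.34 in treated against 11.39 and 11.63 in untreated CDKO cells, and 11.75 and 11.95 in treated against 11.56 and 11.66 in untreated WT cells. The difference of the responses, CDKO minus WT, was -0.43 ± 0.53 (SE, limma adjusted p = 0.768) and did not pass. Srsf11 read 11.05 and 11.14 in treated against 11.30 and 11.70 in untreated CDKO cells, and 10.96 and 10.89 in treated against 10.74 and 10.72 in untreated WT cells. Its difference was -0.59 ± 0.37 (adjusted p = 0.558), which did not pass either. Other probe sets differed in sign. For Srsf2, 1415807_s_at and 1452439_s_at had higher means with drug in CDKO cells as well (9.54 against 9.16, and 10.15 against 9.99). A further one, 1427816_at, was lower there. For Srsf11, 1427269_at and 1439095_at were lower with drug in WT cells (-0.51 and -1.32), and 1430077_at was higher (0.57). The untreated WT arrays used for both genes are those with the raised 18S control. With the Gapdh 3′ to 5′ difference as a covariate the WT change turned sign in both genes. For Srsf2 it was -0.41 ± 0.21 (adjusted p = 0.351), against 0.24 on the WT arrays alone. For Srsf11 it was -0.16 ± 0.23 (adjusted p = 0.782), against 0.19. That adjustment rests mainly on the pair of CDKO arrays at 1 µM.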

How the results depend on the processing

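In treated CDKO against the control groups, 2 genes passed as reported, and 3 with the Gapdh covariate (Srrm2 besides). The count was 1 without the filter (Hnrnpd), and with 1 probe set per gene, probe sets averaged or the replicate block (Taf15), and 0 with array weights, with the spike-in control class as a block, as 2 groups, with the line as a covariate, without untreated WT, and without untreated WT and CDKO 1 µM replicate 2. Leaving out each array in turn gave 0 to 2, with 0 without any single WT array, 1 (Taf15) without CDKO untreated replicate 1 or either CDKO 5 µM array, and 1 (Srsf2, with both reported calls lost) without CDKO 1 µM replicate 1. At 5 µM against 1 µM in CDKO cells these fits gave 0 to 1, the 1 being Srsf5 without CDKO 1 µM replicate 1. With drug in WT cells 0 passed as reported, against 1 without the filter or with 1 probe set per gene, 2 after quantile normalization, 3 with a trended robust prior, 4 with probe sets averaged, 5 with the control class as a block and 22 with array weights or the 4 WT arrays alone; leaving out arrays gave 0 to 8, with 8 without either CDKO 1 µM array and 1 without either CDKO 5 µM array. In untreated CDKO against untreated WT cells 2 passed, against 4 with array weights, 1 with those groups alone (Srsf5, higher, with both reported calls lost), and 0 with the replicate block or the Gapdh covariate; leaving out arrays gave 0 to 7, with 7 without either CDKO 1 µM array, 1 without CDKO untreated replicate 1 and 0 without CDKO untreated replicate 2 or any WT array. An array left out of a pair leaves its group without a spread of its own, so the lone array is assumed to vary like the other groups. With drug in WT cells, 54.7% of all probe sets were called on the WT arrays alone and 60.2% with array weights. For the other alternative runs the share of all probe sets called was not counted. A change in the number of called genes there is therefore not a result about these genes. Signs turned for Srsf1 at 5 µM against 1 µM with probe sets averaged (0.15) and for Ddx5 in treated CDKO against treated WT cells without cross-hybridising probe sets (0.039). With the Gapdh covariate they turned for Ptbp1, Srsf2, Srsf11 and Hnrnpa1 with drug in WT cells (-0.19, -0.41, -0.16 and -0.004). In untreated CDKO against untreated WT cells they turned for Hnrnpa0, Hnrnpc and Hnrnpu (0.027, 0.017 and -0.009). None of these was called in the fit of all groups. The other comparisons had 0 genes called in each alternative run. The cause of these differences was not tested, and values near 4 are limited by background.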
